A study of Homo sapiens with 12 samples.

Results

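The epidermal growth factor receptor (EGFR) family was followed through 9 genes in 2 human endometrial cell lines cultured with AG-205. They are the receptors EGFR, ERBB2 and ERBB3, the ligands EREG, AREG, TGFA, HBEGF and NRG1, and the feedback inhibitor ERRFI1. The genes were taken by symbol from a list of the family, which was chosen with earlier results of these data known. All 9 were found by Ensembl identifier among the 58735 genes counted. HEC-1A is a cancer cell line of endometrial epithelial origin, and T-HESC is an endometrial stromal line immortalised with telomerase. Each line was given AG-205, a small molecule that has been used as a ligand of the membrane protein PGRMC1, at 15 µM, or its solvent DMSO alone, and was lysed after 32 h. All 4 groups were in medium with fetal bovine serum, which itself carries growth factors, and each group holds 3 libraries of polyA RNA from independent cultures. HEC-1A stands for 1 tumour and T-HESC for 1 donor, so that differences between the lines cannot be told apart from differences between epithelium and stroma.

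ERBB receptors are tyrosine kinases that sit in the cell membrane and form pairs when a ligand binds. EREG, AREG, TGFA and HBEGF bind EGFR, NRG1 binds ERBB3, and ERBB2 has no known ligand of its own and acts as the partner of the other receptors. The ligands are made as membrane proteins and cut free by ADAM proteases, the active receptors signal through the RAS to ERK cascade and through PI3 kinase, and ERRFI1 (also called MIG6) binds the kinase domain of EGFR and shuts it off. In the endometrium the family is known for its part in growth of the epithelium and in the exchange of signals between epithelium and stroma at implantation.

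The main contrast within the family lay between the lines. HEC-1A carried mRNA of EREG, AREG and TGFA, whereas T-HESC had almost none of EREG and TGFA and carried more HBEGF. AG-205 left most of the family within the spread of the libraries: in HEC-1A AREG rose 1.60-fold, and no other member passed the test in either line. Of all genes tested in HEC-1A, 11.6% passed, so that a passing member is in itself no mark of the family. The AREG call held in 11 of 15 settings of the fit. It was lost whenever a DMSO library was left out, and in a fit of all 12 libraries.

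The regions just before the start sites of 4 ligand genes are shown because EREG, AREG and TGFA were found mainly in HEC-1A and HBEGF was the member higher in T-HESC. RefSeq windows (GRCh38.p14) were given for 7 of the 9 members, and each sequence below is the 250 bases before the start, 5′ to 3′ on the strand of the gene. Capitals mark matches on either strand to the TATA box, spelled TATAAA, to the cyclic AMP response element (CRE), spelled TGACGTCA, to its core, spelled TGACG, to the GC box, spelled GGGCGG, or to the AP-1 site, spelled TGANTCA. The core lies inside the CRE, so that a CRE also counts as a core.
AREG, chr4:74444886-74445135, plus strand: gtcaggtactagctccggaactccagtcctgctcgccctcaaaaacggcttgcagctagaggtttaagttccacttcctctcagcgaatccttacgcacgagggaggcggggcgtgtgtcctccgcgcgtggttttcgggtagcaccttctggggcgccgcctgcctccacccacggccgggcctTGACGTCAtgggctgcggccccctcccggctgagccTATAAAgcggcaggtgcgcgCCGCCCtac
EREG, chr4:74364895-74365144, plus strand: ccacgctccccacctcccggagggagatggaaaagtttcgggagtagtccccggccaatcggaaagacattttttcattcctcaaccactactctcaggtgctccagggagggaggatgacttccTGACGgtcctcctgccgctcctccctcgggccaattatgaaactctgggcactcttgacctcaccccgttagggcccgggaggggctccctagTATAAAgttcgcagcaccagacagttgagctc
TGFA, chr2:70553827-70554076, minus strand: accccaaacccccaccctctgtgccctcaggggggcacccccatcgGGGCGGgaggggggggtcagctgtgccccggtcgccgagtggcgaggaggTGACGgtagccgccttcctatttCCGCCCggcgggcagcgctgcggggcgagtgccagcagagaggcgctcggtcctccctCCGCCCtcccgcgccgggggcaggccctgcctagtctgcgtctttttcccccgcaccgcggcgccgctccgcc
HBEGF, chr5:140346604-140346853, minus strand: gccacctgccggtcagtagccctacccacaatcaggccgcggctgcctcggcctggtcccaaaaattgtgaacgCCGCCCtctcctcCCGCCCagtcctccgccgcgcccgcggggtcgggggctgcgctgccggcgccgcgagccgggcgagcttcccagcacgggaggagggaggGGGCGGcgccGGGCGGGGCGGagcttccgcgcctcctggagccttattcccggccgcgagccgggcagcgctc

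AREG held a CRE 65 to 58 bases before its start and a TATA box 29 to 24 bases before it. EREG held a TATA box 32 to 27 bases and a CRE core 125 to 121 bases before its start. Among 27305 windows of the same length, 1.77% held a CRE, 21.7% a core, 11.1% a TATA box and 1.67% both a TATA box and a core. The TGFA window shown held 3 GC boxes and a core with no TATAAA, and HBEGF held 5 GC boxes and none of the other motifs. RefSeq gave a second TGFA window (chr2:70553447-70553696) with none of these motifs, and both windows lie before RefSeq starts that are inside the span of the gene in GENCODE. A GC box was found in 42.3% of all windows, and the GC content was 65.2% in AREG, 58.0% in EREG, 75.6% in TGFA and 76.4% in HBEGF, against a median of 58.0%. These are matches of letters only.

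EREG and AREG are neighbours on chromosome 4 (GRCh38). EREG lies at 74365145 to 74388749 and AREG at 74445136 to 74455005, both on the plus strand, with 56.4 kb between them. Together with the ligand genes EPGN and BTC they are the 4 protein-coding genes of a 486.1 kb stretch. The other members lie apart, with EGFR on chromosome 7 (55019017 to 55211628), ERBB2 on 17 (39687914 to 39730426), ERBB3 on 12 (56076799 to 56103505), HBEGF on 5 (140332843 to 140346603), TGFA on 2 (70447284 to 70554193), NRG1 on 8 (31639222 to 32855666) and ERRFI1 on 1 (8004404 to 8026309). Genes on the opposite strand overlap 1.17% of the exon length of EGFR, 6.93% of that of ERBB2 and 3.71% of that of ERRFI1, and since it is not stated whether the counting used strand, reads there cannot be assigned with certainty.

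Libraries held 7168542 to 15178276 counts, and the shallowest was replicate 3 of HEC-1A with AG-205. Levels are CPM (counts relative to the library total) scaled with edgeR's TMM method over all 12 libraries, and a gene whose counts in a group never go above 3 is said to be at the floor. The spread between libraries of a group was far wider in T-HESC, with a biological coefficient of variation of 33.6%, than in HEC-1A, with 10.1%. Transcripts that mark epithelium (9 genes, among them EPCAM, CDH1 and keratins) summed to 1488 to 1649 CPM in HEC-1A with DMSO, 2198 to 2270 CPM in HEC-1A with AG-205 and 221 to 387 CPM in T-HESC, where CDH1, ESRP1 and GRHL2 were at the floor with DMSO, and the part of this sum in the results for AG-205 was not tested. The sum in T-HESC came mainly from keratins, and KRT19 did not set the lines apart. With DMSO its mean was 106 CPM in T-HESC and 100 CPM in HEC-1A. KRT18 had means of 154 and 356 CPM, and KRT8 of 32.6 and 288 CPM. EPCAM, CLDN3 and CLDN4 had means of at most 2.27 CPM in T-HESC with DMSO. Markers of stroma (8 genes, among them VIM and collagens) summed to at most 14.6 CPM in HEC-1A and at least 13034 CPM in T-HESC. Markers of leukocytes (4 genes) summed to at most 2.71 CPM in any library. Since whole cultures were sequenced, fewer cells that carry a transcript cannot be told apart from less of it in each cell. INSIG1, a target of the sterol-regulated SREBP transcription factors, went from 32.5 to 35.8 CPM with DMSO to 288 to 369 CPM with AG-205 in HEC-1A, and from 85.5 to 147 CPM to 895 to 1190 CPM in T-HESC.

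**Figure D1:**
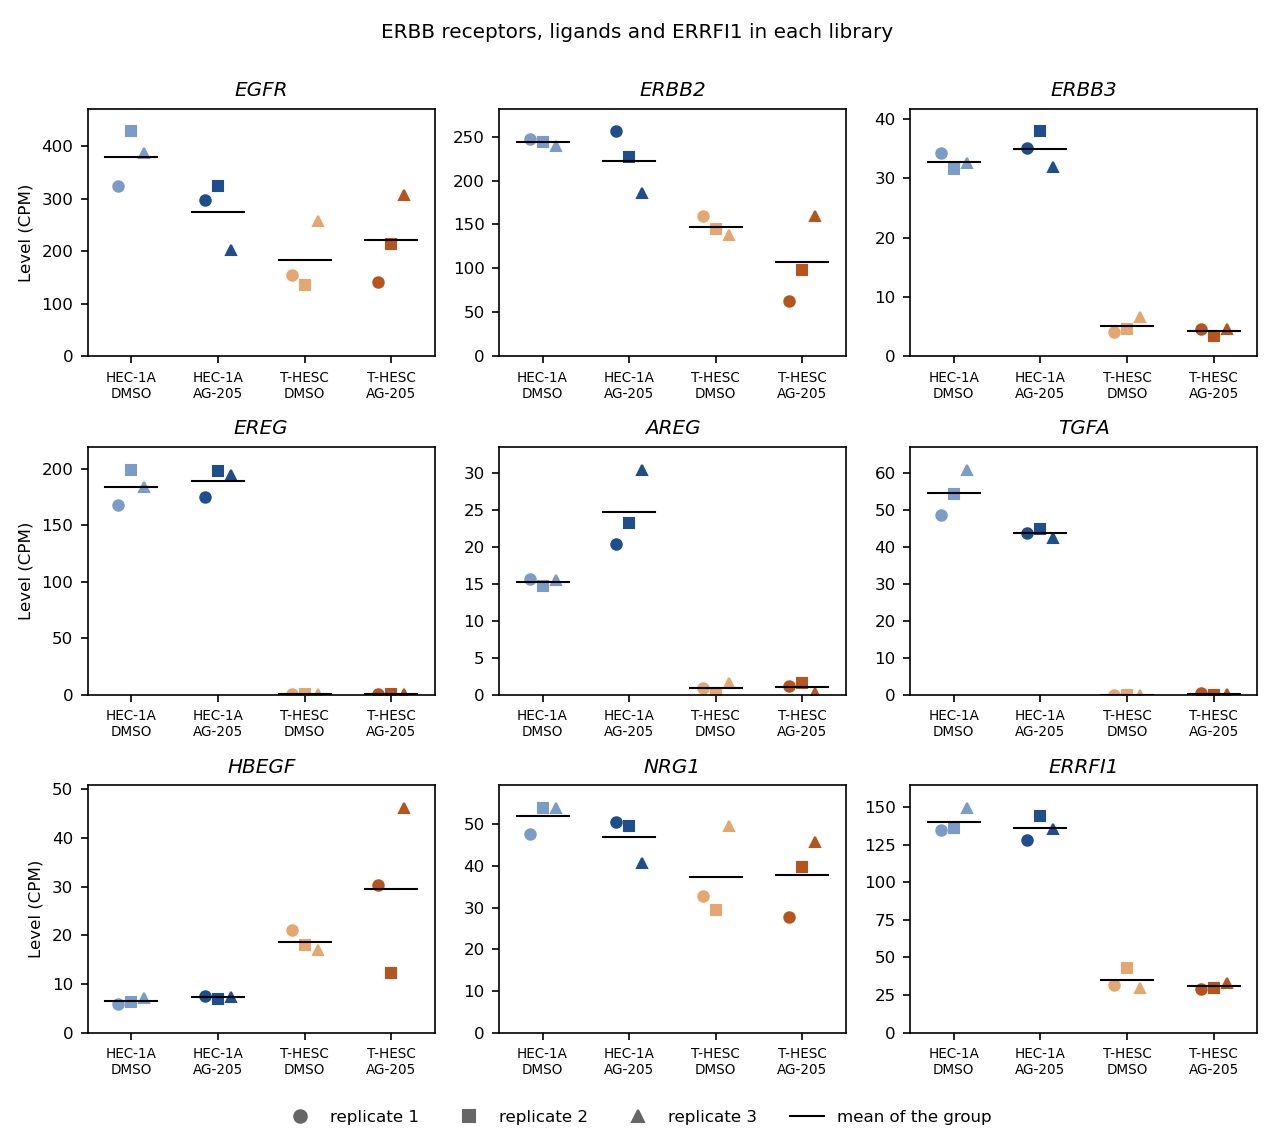
Level of each member in CPM (linear axis from 0, a scale of its own in each panel) in the 4 groups; each point is 1 library, its shape gives the replicate number, and the line is the mean of the 3 libraries. EREG and TGFA lie at or near 0 in T-HESC, HBEGF is higher in T-HESC, and the AREG points of HEC-1A with AG-205 (20.4 to 30.5 CPM) lie above those with DMSO (14.6 to 15.7 CPM).

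The first comparison was between the lines without the compound, and asked which parts of the family each cell type carries. Of the 9 members, 8 were lower and 1 was higher in T-HESC than in HEC-1A at an adjusted p under 0.05 (edgeR's quasi-likelihood test, Benjamini-Hochberg over 14789 genes). The lines differ widely in general: 72.1% of all genes tested passed, 36% of them lower and 36.1% higher, so that passing is in itself no mark of the family. Past a log2 fold change of 1 in either direction there were 7 members, 6 lower and 1 higher, where 44.6% of all genes were, 22.3% in each direction. The libraries of the lines did not overlap for 8 members, against 76.6% of all genes. The median log2 difference of the members was -2.02, against -0.02 for all genes.

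EGFR, the receptor of most ligands of the list, stood at 324, 428 and 388 CPM in the 3 HEC-1A libraries with DMSO and at 154, 136 and 257 CPM in those of T-HESC. The highest T-HESC library was below the lowest HEC-1A library. EGFR was thus lower in T-HESC (log2 difference -1.07, SE 0.23, adjusted p = 0.00273).

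ERBB2, the partner receptor, was even among replicates, with 247, 244 and 239 CPM in HEC-1A and 160, 144 and 138 CPM in T-HESC. It was 1.67-fold lower in T-HESC (log2 -0.74, SE 0.09, adjusted p = 9.2e-05). ERBB3, the receptor of NRG1, which signals through its partner, showed the wider gap among the receptors. Its levels were 34.2, 31.6 and 32.6 CPM in HEC-1A and 4.06, 4.63 and 6.58 CPM in T-HESC, 6.55-fold lower (log2 -2.71, SE 0.18, adjusted p = 1.85e-06). ERBB4, which also binds NRG1, had at most 2 counts in any library and was not tested.

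EREG (epiregulin) was the ligand with the highest CPM per kb of exon in HEC-1A and was at the floor in T-HESC. HEC-1A with DMSO held 168, 199 and 184 CPM, whereas the T-HESC libraries held 3, 2 and 1 counts. The pooled ratio was 1085-fold, with a 95% counting interval of 498 to 2957 that covers counting error only. TGFA (transforming growth factor alpha) stood at 48.4, 54.2 and 60.9 CPM in HEC-1A and had no count in the 3 T-HESC libraries with DMSO. Set against a floor of 3 counts per library it was at least 181-fold higher in HEC-1A.

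AREG (amphiregulin) was also mainly in HEC-1A, at 15.7, 14.6 and 15.5 CPM, against 0.902, 0.248 and 1.60 CPM in T-HESC. The latter rest on 12, 3 and 16 counts, and the gene was 17.2-fold lower in T-HESC (log2 -4.11, SE 0.38, adjusted p = 1.54e-05). BTC (betacellulin), the other ligand of the chromosome 4 stretch that was expressed, showed the same side: 12.1 ± 1.56 CPM (SD, n = 3) in HEC-1A and no count in T-HESC, at least 40.2-fold. EPGN never went above 3 counts, so that 3 of the 4 ligand genes of the stretch were expressed in HEC-1A and none of the 4 reached 2 CPM in T-HESC.

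HBEGF (heparin-binding EGF-like growth factor), which binds EGFR and is known from the attachment of the embryo to the endometrium, was the member with the opposite order. It stood at 5.99, 6.36 and 7.08 CPM in HEC-1A and at 21.1, 18.0 and 17.0 CPM in T-HESC. The groups lay well apart, and HBEGF was 2.86-fold higher in T-HESC (log2 1.52, SE 0.15, adjusted p = 2.74e-05).

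NRG1 (neuregulin 1) differed least between the lines. Its levels were 47.7, 53.9 and 53.9 CPM in HEC-1A and 32.8, 29.3 and 49.6 CPM in T-HESC. One T-HESC library, replicate 3, lay within the range of HEC-1A, and the difference of 1.41-fold (log2 -0.49, SE 0.19, adjusted p = 0.0419) was past the threshold only narrowly. Without T-HESC replicate 3 it was -0.71 (adjusted p = 2.41e-06). It did not pass without HEC-1A replicate 1 (adjusted p = 0.0655), 2 (0.111) or 3 (0.107), without T-HESC replicate 1 (0.131) or 2 (0.141), or in a fit of all 12 libraries (0.0834).

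ERRFI1, the feedback inhibitor of EGFR, followed the receptors and was lower in T-HESC. HEC-1A held 135, 136 and 150 CPM and T-HESC 31.9, 43.0 and 29.7 CPM, a 4.05-fold difference (log2 -2.02, SE 0.15, adjusted p = 3.29e-06) with the groups far apart.

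Per kb of exon the makeup of the ligands could be set side by side. Of the summed CPM per kb of the 5 ligands in HEC-1A with DMSO, EREG made up 56.2% ± 2.12 (SD, n = 3), TGFA 19.4% ± 1.43, AREG 16.3% ± 1.52, NRG1 4.24% ± 0.04 and HBEGF 3.79% ± 0.22. In T-HESC with DMSO, HBEGF made up 73.2% ± 8.79, NRG1 20.2% ± 4.91, AREG 6.27% ± 4.42 and EREG 0.336% ± 0.125, with TGFA at 0. So among these 5, EREG led per kb of exon in HEC-1A and HBEGF in T-HESC. BTC, which is not among them, stood at 4.56 CPM per kb of exon in HEC-1A with DMSO. This was above NRG1 (2.43) and HBEGF (2.17). In CPM, NRG1 (51.8) was above BTC (12.1), so that the order of BTC and NRG1 depends on the division by length. With the length of the main transcript in place of all exons, EREG still led in HEC-1A with 54.9% ± 2.09 and HBEGF in T-HESC with 67.6% ± 9.32. In CPM, not divided by length, NRG1 (37.2 ± 10.8) was above HBEGF (18.7 ± 2.12) in T-HESC with DMSO. The lead of HBEGF there thus depends on the lengths used, for NRG1 21372 bases of exon or 11983 of the main transcript. Among the receptors in HEC-1A with DMSO, EGFR (23.8 ± 3.30 CPM per kb of exon) and ERBB2 (23.6 ± 0.383) lay at one level by all exons, whereas ERBB2 (53.4 ± 0.87) was above EGFR (38.3 ± 5.3) by the main transcript, so their order was not settled. ERBB3 was below both by either length, with 2.80 ± 0.111 CPM per kb of exon.

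**Figure D2:**
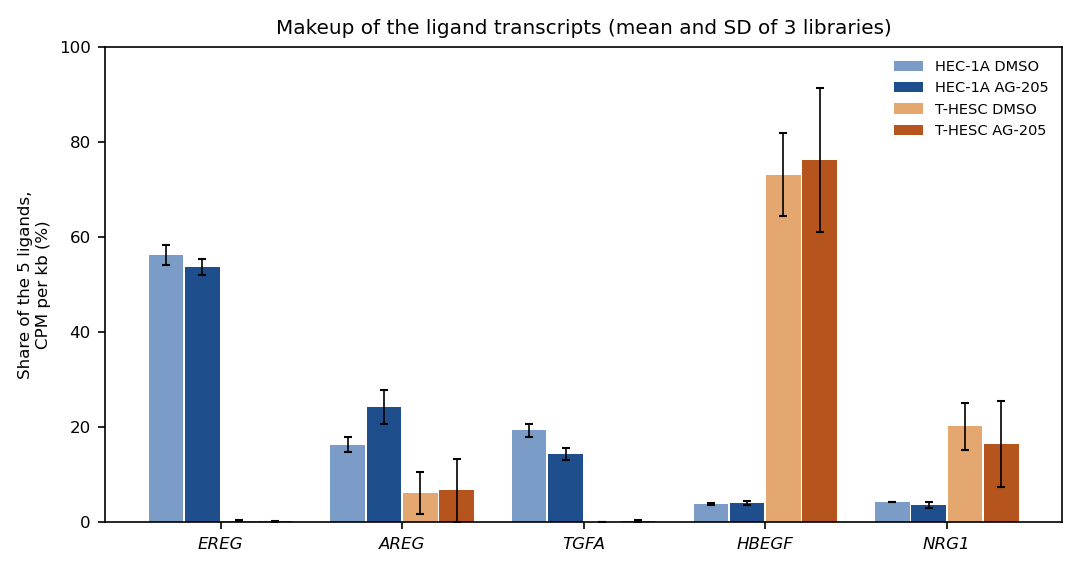
Share of each of the 5 ligands in their summed CPM per kb of exon (percent, axis from 0 to 100), with bars for the mean and lines for the SD of the 3 libraries of each group (cut at 0). EREG, AREG and TGFA make up most of the sum of these 5 ligands in HEC-1A, and HBEGF most of it in T-HESC, with either treatment. BTC and EGF are not included.

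The next comparison asked what AG-205 did to the family in HEC-1A. Of 14122 genes tested, 11.6% passed at an adjusted p under 0.05, 7.35% higher and 4.28% lower, and 2.78% were also past a log2 fold change of 1. Of the 9 members, 1 passed, AREG, and none was past the fold limit. The 3 libraries with AG-205 lay wholly to one side of the 3 with DMSO for 3 members (AREG, EGFR and TGFA), against 31.5% of all genes, and the same 3 had an unadjusted p under 0.05, against 26.2%. The median log2 fold change of the members was -0.04, against 0.01 for all genes.

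AREG stood at 20.4, 23.3 and 30.5 CPM with AG-205 and at 15.7, 14.6 and 15.5 CPM with DMSO, and every treated library was above every control. It rose 1.60-fold (log2 0.68, SE 0.15, adjusted p = 0.0116). The highest value was that of replicate 3, the shallowest library. In that library genes with under 2 kb of exon deviated by a median of 0.21 (log2) from the other AG-205 libraries and genes over 8 kb by -0.15, and AREG has 1642 bases of exon. Without that library the change was 0.51 (adjusted p = 0.000956), and with each library's trend with exon length taken out it was 0.60 (adjusted p = 0.00765). The call was lost without DMSO replicate 1 (adjusted p = 0.0502), 2 (0.0625) or 3 (0.053), with log2 fold changes of 0.70, 0.65 and 0.70, and in a fit of all 12 libraries (0.743).

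EREG, the neighbour of AREG, stood at 175, 198 and 194 CPM with AG-205 and at 168, 199 and 184 CPM with DMSO. The groups overlapped, and the log2 fold change was 0.04 with a 95% interval of -0.17 to 0.25 (adjusted p = 0.833). Within each library there were 11.7, 11.8 and 15.7 counts of AREG per 100 of EREG with AG-205, and 9.33, 7.35 and 8.44 with DMSO. This ratio, chosen after the values were seen and not tested, does not depend on the scaling of the libraries and was higher in the 3 treated libraries. It is not free of a library's trend with exon length, since AREG has 1642 bases of exon and EREG 5713. The highest ratio was that of AG-205 replicate 3, in which short genes were raised. BTC, the third expressed ligand of the stretch, stood at 14.3 ± 1.35 CPM in the treated cells (SD, n = 3), against 12.1 ± 1.56 CPM in the controls, and did not pass.

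TGFA was lower in the 3 treated libraries, with 43.6, 44.9 and 42.3 CPM against 48.4, 54.2 and 60.9 CPM, but did not pass (log2 -0.32, SE 0.10, adjusted p = 0.0695). It passed with library quality weights (adjusted p = 0.00942), with the length trend taken out (0.0497) and without AG-205 replicate 3 (0.0128). HBEGF stood at 7.63, 6.93 and 7.41 CPM with AG-205 and 5.99, 6.36 and 7.08 CPM with DMSO, with overlap (log2 0.18, 95% interval -0.15 to 0.51). NRG1 also overlapped, at 50.5, 49.5 and 40.6 against 47.7, 53.9 and 53.9 CPM (log2 -0.14, 95% interval -0.37 to 0.10). In the makeup of the 5 ligands per kb of exon, AREG stood at 24.3% ± 3.52 with AG-205, above TGFA at 14.5% ± 1.25, whereas with DMSO TGFA (18.5% to 21.0% in single libraries) was above AREG (15.0% to 18.0%). By the length of the main transcript, TGFA (17.5% to 19.8%) and AREG (15.7% to 18.9%) overlapped with DMSO, so that their order there was not settled.

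EGFR was lower with AG-205 in each library than in any control, at 297, 324 and 202 CPM against 324, 428 and 388 CPM, although the closest 2 values differ by less than 1 CPM. The log2 fold change was -0.47 (SE 0.16, 95% interval -0.81 to -0.13) and missed the threshold (adjusted p = 0.0731). The lowest value was that of replicate 3, and EGFR has 15941 bases of exon, in the length class that was low in this library. Without it the log2 fold change was -0.30, and EGFR passed (adjusted p = 0.0137). It also passed without AG-205 replicate 2 (-0.60, adjusted p = 0.0365), with DESeq2 (adjusted p = 0.0149), with no filter on low counts (0.000375), with library quality weights (0.00917) and with the length trend taken out (-0.42, 0.0361). In the other 9 settings of the fit EGFR did not pass, and in all 15 its sign was negative.

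ERBB2 stood at 256, 226 and 186 CPM with AG-205 against 247, 244 and 239 CPM, and the treated libraries reached both above and below the controls (log2 -0.12, 95% interval -0.37 to 0.12). ERBB3 was at 35.0, 37.9 and 31.9 CPM against 34.2, 31.6 and 32.6 CPM (log2 0.10, 95% interval -0.12 to 0.32). ERRFI1, a gene that EGFR signalling is known to raise, was at 128, 144 and 135 CPM against 135, 136 and 150 CPM (log2 -0.04, 95% interval -0.24 to 0.15). For these 3 genes a change of 1.5-fold either way lay outside the interval.

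**Figure D3:**
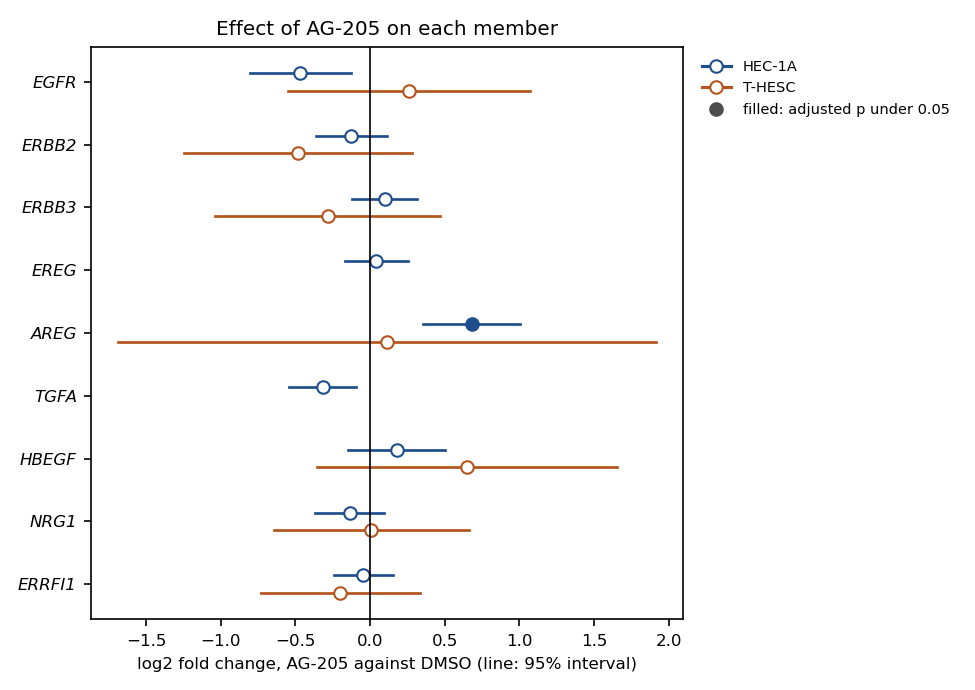
Log2 fold change of each member with AG-205 against DMSO in HEC-1A (blue) and T-HESC (brown); circles are the estimates of edgeR's quasi-likelihood fit, filled where the adjusted p was under 0.05, and lines are 95% intervals. AREG in HEC-1A (0.68) is the filled circle, and the T-HESC intervals are wider; EREG and TGFA were not tested in T-HESC.

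**Figure D4:**
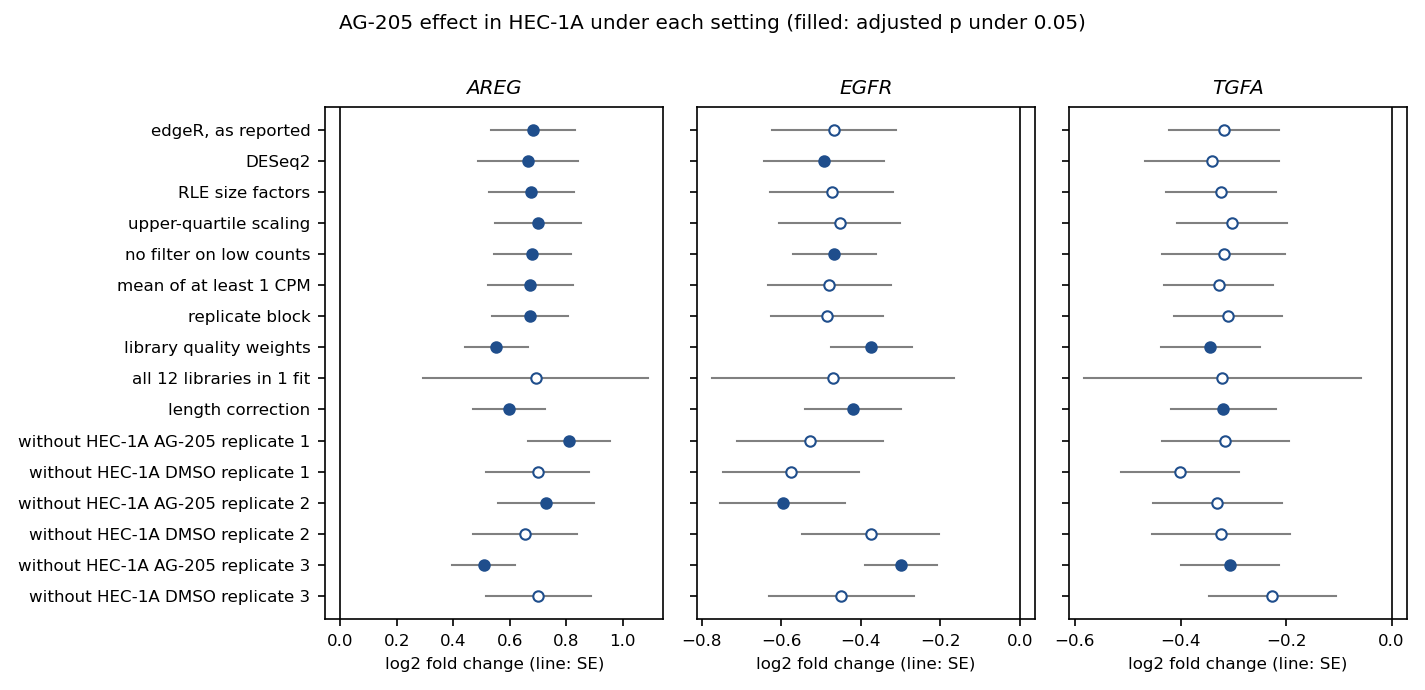
Log2 fold change of AREG, EGFR and TGFA in HEC-1A under each setting of the fit (rows), with lines for the SE and filled circles where the adjusted p was under 0.05; each panel has its own linear axis with 0 marked. AREG stays between 0.51 and 0.81, EGFR between -0.60 and -0.30 and TGFA between -0.40 and -0.23, while the calls come and go.

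In T-HESC the same question could be put to 7 members, since EREG and TGFA had too few counts. None passed: the smallest unadjusted p among them was 0.175, and none passed with DESeq2 either. Of 13753 genes tested, 0.08% passed and 740 (5.38%) had an unadjusted p under 0.05. The libraries of the treatments overlapped for all 9 members, whereas they did not for 11% of the genes tested. The median log2 fold change of the 7 was 0.01, against 0.02 for all genes.

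EGFR stood at 142, 214 and 307 CPM with AG-205 and at 154, 136 and 257 CPM with DMSO (log2 0.26, 95% interval -0.55 to 1.07). ERBB2 was at 62.5, 98.2 and 160 CPM against 160, 144 and 138 CPM (log2 -0.48, 95% interval -1.25 to 0.28). The spread of both was widest with AG-205. In replicate 1 with AG-205, the lowest treated library for both receptors, genes under 2 kb of exon deviated by a median of 0.76 (log2) from the other AG-205 libraries and those over 8 kb by -0.31. The log2 fold change of ERBB2 was -0.22 without that library and -0.88 without AG-205 replicate 3, and passed in neither case. The ratio of EGFR to ERBB2 counts within a library was 2.27, 2.18 and 1.92 with AG-205 and 0.964, 0.944 and 1.87 with DMSO, and in HEC-1A it was 1.16, 1.43 and 1.09 against 1.31, 1.76 and 1.62. The treated T-HESC libraries were thus above their controls, the nearest by a narrow margin, and those of HEC-1A overlapped with theirs; these ratios were chosen after the values were seen and were not tested.

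ERBB3 stood at 4.65, 3.38 and 4.57 CPM with AG-205 against 4.06, 4.63 and 6.58 CPM (log2 -0.28, 95% interval -1.04 to 0.47). HBEGF, of the 5 ligands the one with the highest CPM per kb in T-HESC, varied widely between treated libraries. Its levels were 30.3, 12.3 and 46.2 CPM against 21.1, 18.0 and 17.0 CPM. The treated libraries lay on both sides of the controls, 1 of the 3 below all of them, and the log2 fold change of 0.65 had a 95% interval of -0.36 to 1.65. Leaving out AG-205 replicate 3 gave 0.17, and leaving out replicate 2 gave 1.00. NRG1 was at 27.8, 39.8 and 45.7 CPM against 32.8, 29.3 and 49.6 CPM (log2 0.01, 95% interval -0.64 to 0.66), and its sign turned with upper-quartile scaling (-0.035).

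AREG in T-HESC had 12, 21 and 3 counts with AG-205 and 12, 3 and 16 with DMSO, and the 95% interval of its log2 fold change, -1.69 to 1.91, covers both no change and the change seen in HEC-1A. EREG had 1, 2 and 3 counts with AG-205, and no fold is given as it was at the floor in both groups. TGFA had 4, 0 and 1 counts with AG-205 and none with DMSO, and against HEC-1A with AG-205 it was 316-fold lower, with a 95% counting interval of 135 to 974. ERRFI1 was even, at 29.3, 29.9 and 33.0 CPM against 31.9, 43.0 and 29.7 CPM (log2 -0.20, 95% interval -0.73 to 0.33).

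Whether AG-205 acted differently on the family in the 2 lines was tested in 1 fit over 16132 genes, of which 0.174% passed. No member passed. For EGFR the effect in T-HESC minus that in HEC-1A was 0.75 (log2, SE 0.43, 95% interval -0.19 to 1.68, adjusted p = 0.896), and for AREG it was -0.54 (SE 0.71, adjusted p = 0.994). The smallest unadjusted p among the members was that of TGFA (0.0153, adjusted p = 0.605), which rests on 5 counts in T-HESC. That AREG passed in HEC-1A and not in T-HESC is therefore not a tested difference between the lines.

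The rest of the pathway was followed in lists chosen by function. Of the other receptor and ligand genes of the family, EGF and BTC were tested in HEC-1A and did not pass with AG-205, while ERBB4, EPGN, NRG2, NRG3 and NRG4 had at most 5 counts in any library. EGF was at 4.77 ± 0.338 CPM (SD, n = 3) in HEC-1A with DMSO and lower in T-HESC (log2 -2.76, SE 0.40, adjusted p = 0.000262). Of 4 genes of ligand shedding, ADAM10, a protease that frees EGFR ligands, fell in HEC-1A with AG-205 (log2 -0.34, SE 0.09, adjusted p = 0.0366), with a list median of -0.15. Of all genes tested there, 4.28% were lower. Between the lines RHBDF2, which helps the protease ADAM17 to the cell surface, was lower in T-HESC (log2 -1.55), as were ADAM10 (-0.98) and ADAM17 (-0.60), and RHBDF1 was higher (1.04), all 4 past the test. Of all genes, 72.1% passed in this comparison.

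Of 16 adaptors and kinases between the receptors and ERK, none was higher and 1 was lower with AG-205 in HEC-1A, the phosphatase gene PTPN11 (log2 -0.35, SE 0.10, adjusted p = 0.0461). The list median was -0.09. Of 6 genes of the PI3 kinase branch tested, PIK3CB, a catalytic subunit, fell (log2 -0.31, SE 0.09, adjusted p = 0.0477), and PIK3R2 had at most 6 counts in any library. None of 16 negative regulators passed, with a median of -0.04; the unadjusted p was under 0.05 for 5 of them (LRIG3, RNF41, SOCS5, SPRED1 and DUSP4), against 26.2% of all genes. Of 11 genes that ERK signalling is known to raise, 2 rose and 1 fell, where 7.35% of all genes were higher and 4.28% lower. FOS, an immediate early transcription factor that many stresses also raise, rose from 1.98 ± 0.173 to 5.76 ± 2.36 CPM (SD, n = 3; log2 1.57, SE 0.29, adjusted p = 0.0039), and IER2, another immediate early gene, rose by 0.37 (adjusted p = 0.0441). CCND1, which encodes cyclin D1, fell from 571.5 ± 24.4 to 432 ± 29.6 CPM (log2 -0.40, SE 0.09, adjusted p = 0.015). The other 8, among them MYC, EGR1 and the ETS factors ETV4 and ETV5, did not pass, and the list median was 0.01, as for all genes.

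In T-HESC none of the genes of these lists passed with AG-205. Treated and control libraries did not overlap for 4 of 16 negative regulators, where 11% of the genes tested did not. SPRY2, DUSP5 and DUSP6, which damp RAS to ERK signalling and are themselves raised by it, were higher with AG-205 (log2 0.80, 1.08 and 0.82, adjusted p = 0.445, 0.44 and 0.446), and the ubiquitin ligase gene RNF41 was lower (-0.30, adjusted p = 0.993). SPRY2 went from 37.4 ± 6.56 to 65.9 ± 3.41 CPM and DUSP6 from 16.1 ± 0.818 to 28.7 ± 3.10 CPM (SD, n = 3). These 4 were named for their lack of overlap, after their values were seen. Of the 14 negative regulators tested, 7 had a positive and 7 a negative log2 fold change. Their median was 0.02, as for all genes. The 11 genes raised by ERK had a median log2 fold change of 0.37, against 0.02 for all genes. None of them passed, and the libraries of the treatments did not overlap for 2 of the 11. The part of the length trend of AG-205 replicate 1 in this median was not tested.

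Between the lines in DMSO, 8 of 16 other negative regulators were lower in T-HESC and 3 were higher, where 36% and 36.1% of all genes were, with a list median of -0.46 against -0.02 for all genes. DUSP4 (log2 -6.04), SPRY1 (-5.50) and DUSP5 (-2.75), which act on ERK or on its activation, were lower, and SOCS5 (2.96), a suppressor of cytokine signalling, was higher. Of the 11 genes raised by ERK, 6 were lower, ETV4 (-3.34) and MYC (-1.86) among them, and 5 higher, PHLDA1 (4.18) and FOSL1 (2.39) among them. Of the 16 adaptors and kinases 3 were lower and 4 higher. The adaptor SHC1 was 2.40 higher on the log2 scale and the kinase gene MAPK3 0.54, and GRB2 was 0.43 lower. In the PI3 kinase branch the regulatory subunit gene PIK3R1 was 3.48 higher, while PIK3CB (-1.21) and AKT2 (-0.76) were lower. Each gene named here passed the test.

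The likeness of other genes to each member was measured as the root mean square difference of log2 CPM over the 12 libraries, each gene's own mean taken off, among 16048 genes. For most members this follows the gap between the lines. TJP1, a tight junction gene, lay nearest to NRG1 (0.07), PLCD3 nearest to ERBB2 (0.07) and USP31 nearest to EGFR (0.13). The pseudogene IFT122P3 lay nearest to ERBB3 (0.14), HELB to ERRFI1 (0.13), CLDN16, a claudin gene, to EREG (0.23), S1PR2 to HBEGF (0.24) and SIM1 to TGFA (0.30). The nearest gene to AREG, TBXAS1, was farther off (0.42), and AREG varied by an SD of 2.38 over the libraries. The SD was 0.34 for NRG1, 0.56 for EGFR and 4.79 for EREG. Distances were not scaled to the SD, so they do not rank the members by how closely another gene follows them.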

How the data were processed

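PolyA RNA of 12 cultures was sequenced in read pairs. The authors deposited raw counts per gene; per the labels and the study's methods, reads were trimmed with Trimmomatic 0.38, aligned to GRCh38 with HISAT2 2.1.0 and counted with featureCounts of Subread 2.0.0 on Ensembl release 94. Use of strand and of reads with several matches is not given in the sources used here. Groups were taken from the sample labels.

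Counts were tested with edgeR 4.0.16 in R 4.3.3 (TMM, filterByExpr, quasi-likelihood test, Benjamini-Hochberg over all genes tested), each line by itself, the lines against each other in DMSO, and the difference of effects over all 12 libraries. A gene passed at an adjusted p under 0.05, and was called with a log2 fold change past 1 as well, the limits of the study. Lengths came from GENCODE 44. The procedure was tested on simulated data with 4-fold changes. This does not bear on changes as small as that of AREG in HEC-1A with AG-205 (1.60-fold). Totals of 7168542 to 15178276 counts set the precision; ratio intervals and floors cover counting error only.

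The members and lists were chosen with earlier results of these data known. Named were the 9 members, listed pathway genes past the adjusted p (at most 4 per list and comparison, by p) or at the floor, and the 2 nearest profiles per member, of which the nearest is given; others were named after their values were seen, and results for some listed genes are not reported here. Alternatives were DESeq2 1.42.0, RLE and upper-quartile scaling, no filter, a mean of 1 CPM, a replicate block, library quality weights (limma 3.58.1), a fit of all 12 libraries, an adjusted p under 0.01, no fold limit and leaving out single libraries. A correction of each library's trend with exon length was added after seeing the data. Plots were drawn with matplotlib 3.10.9.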

Additional observations from a re-analysis of the deposited data

How the results depend on the processing

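Of 505 repeats of the members' log2 fold changes under other settings, 469 kept their direction and side of the threshold, 9 newly passed, 10 no longer passed and 17 turned in sign; the cause was not tested. With AG-205 in HEC-1A, 1 member passed, against 2 with DESeq2, 2 with no filter, 3 with quality weights, 3 with the length correction, 0 in the fit of all 12 libraries, 0 at an adjusted p under 0.01 and 0 to 3 without single libraries. Genes called there, 364 higher and 29 lower, became 46 lower with quality weights, 135 and 6 in the fit of all 12, 1038 and 605 with no fold limit, and 23 to 46 lower without single libraries. In T-HESC, 11 higher and 0 lower became 100 and 15 with DESeq2, 145 and 36 with no filter, 230 and 103 with quality weights, 133 and 27 in the fit of all 12, 0 higher at an adjusted p under 0.01, and 0 to 69 higher and 0 to 3 lower without single libraries, the highest without AG-205 replicate 1. For the difference between the lines, 7 higher and 21 lower became 29 and 57 with DESeq2, 4 and 23 with upper-quartile scaling, 54 and 87 with no filter, 153 and 227 with quality weights, 0 and 4 at an adjusted p under 0.01, and 0 to 39 higher and 4 to 44 lower without single libraries. Between the lines in DMSO, 3296 higher and 3297 lower became 5335 and 5329 with no fold limit, and upper-quartile scaling moved the median of all genes from -0.02 to -0.17, with 9 members past the test as before.

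No member that turned in sign passed in any of the settings of that comparison. In HEC-1A without single libraries EREG ran from -0.023 to 0.10 and ERRFI1 from -0.079 to 0.010. In T-HESC EGFR ran from -0.046 to 0.58, AREG from -0.46 to 0.73 and NRG1 from -0.15 to 0.26, while AREG was -0.040 with the length correction, HBEGF -0.24 with quality weights, and NRG1 -0.035 with upper-quartile scaling and -0.0012 with no filter. For the difference between the lines AREG ran from -1.12 to 0.059 and ERRFI1 from -0.23 to 0.043, and quality weights gave 0.62 for AREG and -0.32 for HBEGF.

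Whether the replicate numbers pair AG-205 with DMSO libraries was not settled. Deviations of same-numbered libraries correlated at -0.08, 0.23 and 0.00 in HEC-1A and 0.22, -0.53 and -0.04 in T-HESC. Not every library correlated best with its own number, but with 3 libraries per group this cannot show whether cultures were shared. With the replicate number as a block, 335 genes were called higher and 28 lower in HEC-1A, with 1 member past the test, 9 and 0 in T-HESC, and 3269 and 3325 between the lines, with 9 members. For the difference between the lines the block gave 0 calls either way in edgeR, with 779 genes at an unadjusted p under 0.05.

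Low counts limit what can be said of EREG and TGFA in T-HESC, where a library of 11440359 to 15178276 counts held at most 4 of each. For AREG there, with 3 to 21 counts, low counts and the spread between libraries were not told apart.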
